A study of Mus musculus with 22 samples.

Results

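Unsorted osteoblast cultures grown from mouse embryonic stem cells (ESC-OB) were compared with the undifferentiated embryonic stem cells (ESC) they came from. The genes described are those with a base mean of at least 10 per the authors' deposited table for this comparison, which is 14749 of its 19781 genes. The base mean is the mean normalised count over the 9 libraries of the authors' fit, 3 each of ESC, ESC-OB and GFP-positive cells sorted from such cultures. ESC and ESC-OB had 3 samples each, both at passage 20 to 30 and both from a line with Col2.3GFP, a transgene in which part of the Col1a1 promoter makes osteoblast-lineage cells green fluorescent. ESC were sampled at day 0 and ESC-OB after 35 to 40 days of differentiation, which began with 6 days of suspended embryoid bodies. Retinoic acid at 0.1 µM was present from day 3 to day 5 of that step, and LIF, the MEK inhibitor PD0325901 and the GSK3 inhibitor CHIR99021, all used to keep stem cells undifferentiated, were withdrawn. The embryoid bodies were then plated in osteogenic medium. Each group comes from 1 reporter line and the cultures were not sorted. Which samples were kept on fibroblast feeders and which in a serum-free medium, and which of 2 library kits each had, the sources used here do not say. Whether replicates were separate cultures is not said either, and the p-values reflect only how these samples varied.

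Pluripotent stem cells hold a small circuit of transcription factors active, divide fast with a short gap before DNA replication, and draw on glycolysis and threonine breakdown. On leaving that state, cells in an embryoid body form derivatives of all germ layers, and osteogenic medium favours the mesenchymal cells among them. Osteoblasts deposit a matrix rich in type I collagen, and respond to BMP, Wnt, parathyroid hormone and cytokine signals through receptors on their surface. The labelled cell types were set beside their defining markers. Pou5f1 and Nanog, which define pluripotent cells, had a log2 change of -8.81 ± 0.23 and -11.19 ± 0.43 per the authors' deposited table (± is the standard error throughout). The direction of the comparison was itself read from pluripotency genes, so the sign of these changes is no check of the labels. Of 13 osteoblast and osteocyte markers tested, 6 rose and 2 fell, near the 43.3% of all genes that rose, so the count by itself does not mark the cultures as osteoblasts. Runx2, the factor that starts the osteoblast lineage, rose by 7.83 ± 0.85 and Pth1r, the parathyroid hormone receptor, by 8.54 ± 0.44 per the authors' deposited table, while Sp7, which acts after Runx2, did not pass the test at 1.69 ± 1.09 (adjusted p = 0.155). Alpl, tissue alkaline phosphatase, which stem cells also express, fell by 4.93 ± 0.69 per the authors' deposited table. The osteocalcin genes Bglap and Bglap2 and the osteocyte gene Sost had a base mean below 10.

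The tables hold no value per sample, so the spread over replicates is known only through the standard error. Group levels were therefore estimated from the base mean and the authors' log2 changes, in normalised counts. The libraries held 4.49 to 19.5 M reads for ESC and 6.72 to 11.5 M for ESC-OB, as read from the lowest base means. A level of 3 reads over a whole group, called the floor here, is 1.22 normalised counts in ESC and 1.28 in ESC-OB. This limit holds for counting error alone. The fitted fold of a gene under the floor in one group is no bound, and this was so for 800 genes in ESC and 142 in ESC-OB. In bulk RNA, fewer cells of a type and less RNA per cell cannot be told apart.

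Nearly 4 of 5 genes differed between the groups. At an adjusted p under 0.05 per the authors' deposited table (DESeq2), 6389 of the 14749 genes rose in ESC-OB (43.3%), 5283 fell (35.8%) and 3077 did neither, 19 of them for want of an adjusted p. Together 79.1% were called, so a list in which most members changed lies near the background. Rises were larger than falls: the median log2 change was 2.43 among genes that rose and -1.41 among those that fell. A change of 8 or more on the log2 scale was a rise for 404 genes and a fall for 81. The split moved with the level, from 65.4% rises among the called genes with a base mean of 10 to 30 to 43.4% above 3000. The base mean averages ESC with 6 differentiated libraries, so a gene found only in ESC needs 3 times that level in ESC to be counted. A gene under the floor in ESC is counted only through the differentiated libraries, which favours a rise. The median gene lay at 0.19, and measured from it 5905 genes rose and 5911 fell. Only 836 genes (5.67%) had a 95% interval that lay within 0.5 of 0. Nearest to 0 among genes of base mean 1000 or more was Ctnnb1, which encodes beta-catenin, the hub of Wnt signalling, at -0.00 ± 0.08 per the authors' deposited table (adjusted p = 0.962). Capzb, an actin capping protein, Rab1b, a GTPase of the early secretory route, and Napa, which recycles membrane fusion complexes, lay at -0.00 ± 0.09, 0.01 ± 0.11 and -0.02 ± 0.09 per the authors' deposited table. Measured from the median gene, Ctnnb1, Capzb and Napa were called as lower.

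**Figure D1:**
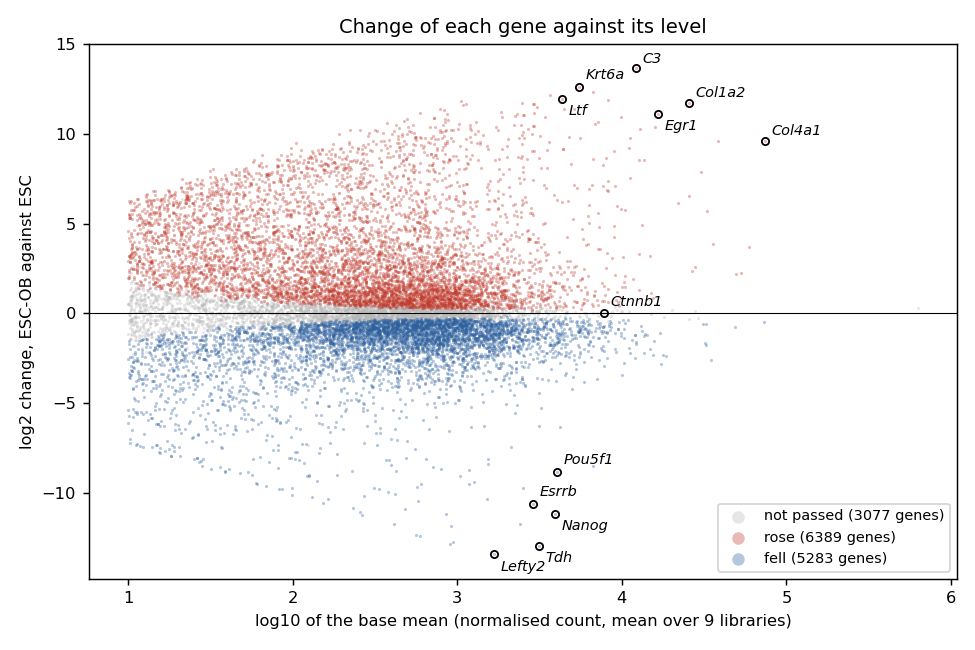
Log2 change (ESC-OB against ESC) of each of the 14749 genes against the log10 of its base mean, coloured by call, with named genes ringed. Rises reach further from 0 than falls: 404 genes rose by 8 or more and 81 fell by as much.

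Classes of gene differed in the way they moved. Of 507 secreted proteins tested, 406 rose and 42 fell, with a median log2 change of 4.64 (4.31 with levels under the floor raised to it), against 0.19 for all genes. Adhesion and junction genes rose in 114 and fell in 13 of 143 (median 3.18), and receptors rose in 276 and fell in 42 of 366 (median 2.50). Cytoskeletal genes rose in 135 and fell in 46 of 221, transporters and channels rose in 226 and fell in 95 of 410, and signalling genes rose in 249 and fell in 97 of 406. Enzymes were close to all genes, with 184 up and 160 down of 415 and a median of 0.18, and among those of base mean 100 or more their split turned to 123 up and 143 down. Genes of chromatin, RNA handling and proliferation fell in 547 and rose in 84 of 727 (median -1.29). Transcription factors, at 307 up and 255 down of 711, were close to the shares over all genes, and measured from the median gene their split turned to 281 up and 284 down.

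**Figure D2:**
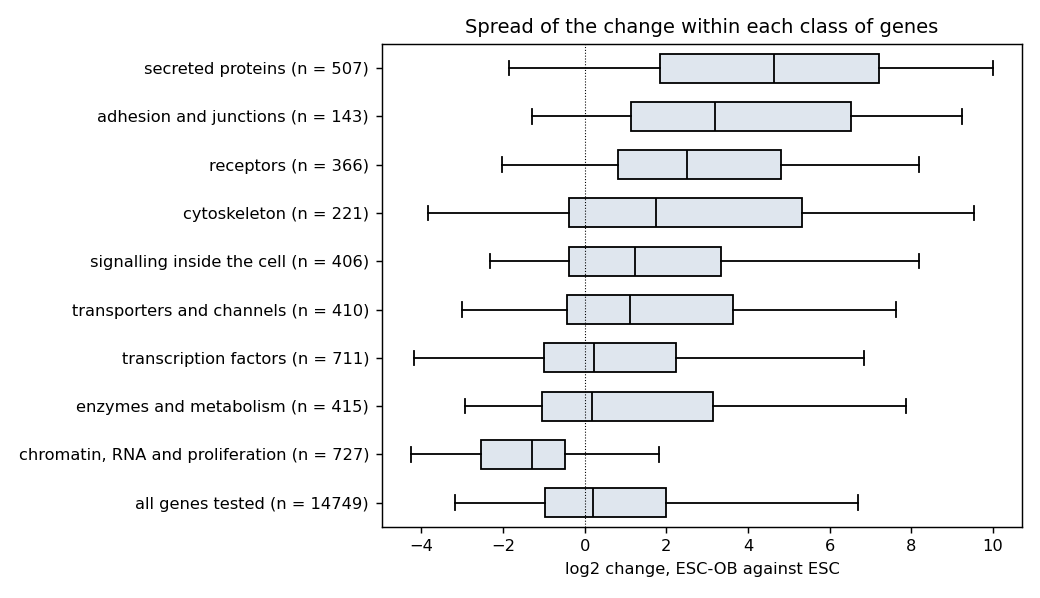
Box plots of the log2 change (ESC-OB against ESC) over all genes tested and over 9 classes; the line is the median, the box the quartiles and the whiskers the 5th to 95th percentiles. Secreted proteins have the highest median (4.64) and genes of chromatin, RNA and proliferation the lowest (-1.29).

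Replication genes and histone genes each held certain promoter letters more often than promoters as a whole, and the letters reported differ between them. The 4 promoters shown were picked because they hold the letters searched. Candidates were list members with 1 promoter and all matches before the start, taken in order of the absolute test statistic. The stretch is the 250 bases before the start in RefSeq's GRCm38.p6 annotation, 5′ to 3′ on the gene's strand. The authors' build was mm9 and no coordinate of theirs is used. Capitals mark the letters searched. These were TTTCCCGC or TTTGGCGC on either strand (written E2F below) for Mcm5, part of the replicative helicase, and Pola1, the polymerase that primes new strands. For the histone gene Hist1h2ac they were CCAAT on either strand and TATAAA on the gene's strand, beginning 40 to 20 bases before the start. For Bst2, which tethers viruses to the membrane, they were GAAANNGAAA on either strand (the interferon-stimulated response element, ISRE), with 2 overlapping matches.
Mcm5, chr8:75109259-75109508, plus strand: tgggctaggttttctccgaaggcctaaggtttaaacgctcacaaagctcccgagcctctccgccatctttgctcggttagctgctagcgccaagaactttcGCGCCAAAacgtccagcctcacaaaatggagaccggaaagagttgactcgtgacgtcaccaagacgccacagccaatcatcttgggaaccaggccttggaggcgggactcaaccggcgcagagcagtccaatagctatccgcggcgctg
Pola1, chrX:93632156-93632405, minus strand: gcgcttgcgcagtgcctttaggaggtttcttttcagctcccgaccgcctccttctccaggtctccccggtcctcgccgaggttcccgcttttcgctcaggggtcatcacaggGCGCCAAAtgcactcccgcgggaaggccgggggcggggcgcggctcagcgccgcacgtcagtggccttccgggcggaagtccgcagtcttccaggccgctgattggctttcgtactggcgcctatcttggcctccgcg
Hist1h2ac, chr13:23683960-23684209, minus strand: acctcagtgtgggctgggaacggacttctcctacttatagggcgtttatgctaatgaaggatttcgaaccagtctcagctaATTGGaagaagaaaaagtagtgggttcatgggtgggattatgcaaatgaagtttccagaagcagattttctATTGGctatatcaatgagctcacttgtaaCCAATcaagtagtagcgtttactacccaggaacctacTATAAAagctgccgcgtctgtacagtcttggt
Bst2, chr8:71537473-71537722, minus strand: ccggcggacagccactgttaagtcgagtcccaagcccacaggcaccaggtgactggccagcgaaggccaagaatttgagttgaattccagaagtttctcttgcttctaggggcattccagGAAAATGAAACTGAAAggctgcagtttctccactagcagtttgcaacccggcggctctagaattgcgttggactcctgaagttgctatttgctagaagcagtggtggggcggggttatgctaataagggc
In the authors' deposited table Mcm5 fell by 4.55 ± 0.17, Pola1 fell by 4.48 ± 0.23 and Hist1h2ac fell by 4.03 ± 0.33, while Bst2 rose by 4.12 ± 0.24. Shares were counted over windows of 250 bases before to 50 after the start. The E2F letters stood in 16 of 39 windows of the DNA replication genes (41%), against 514 of all 32851 windows (1.56%), and in 3 of 44 windows of centromere and kinetochore genes (6.82%). Histone genes held CCAAT in 34 of 39 windows (87.2%, against 37.4%) and TATAAA in 9 (23.1%, against 1.99%). Of the 1024 pairs of list and motif computed, these were chosen after the shares had been seen. Other lists stood as far from the share of all windows: the Rhox genes, close copies of each other, held CCAAT in 12 of 14 windows (85.7%) and the CArG box, the letters of serum response factor, in 6 (42.9%, against 1.63%). For the interferon-induced list (22 of 42 windows with the ISRE letters) the check is void, because only 72.5% of its members had a window. It is void too for the immediate early genes (TGACGTCA in 0 and the CArG box in 4 of 14 windows) and the collagens (TATAAA in 1 of 36). A match is a description of these letters and not a site.

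Transcription factors split into families that fell nearly whole, families that rose whole, and families with members in both directions. Over all genes 43.3% rose and 35.8% fell, so a mixed family by itself does not stand out from the background. Leaving out the zinc finger genes named Zfp and Zscan4, 233 of 371 factors rose and 98 fell (median 1.55). Of the 334 Zfp genes tested 151 fell and 74 rose (median -0.38). Largest among those falls were Zfp534 and Zfp600, from clustered KRAB zinc finger genes, at -9.52 ± 0.50 and -9.40 ± 0.50, and Zfp42 (Rex1), a marker of naive stem cells, at -7.47 ± 0.40 per the authors' deposited table. Zfp57, which protects imprinted methylation, fell by 4.05 ± 0.19 per the authors' deposited table. Its partner Trim28, the co-repressor that KRAB zinc fingers recruit, fell by 2.94 ± 0.17 per the authors' deposited table. All 6 Zscan4 genes fell, Zscan4c fell by 4.89 ± 0.41 per the authors' deposited table; copies of this family are nearly identical and reads could be split among them. Zfp608 and Zfp9 rose most in the family, by 7.03 ± 0.49 and 6.83 ± 0.46 per the authors' deposited table.

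The E2F family, which drives entry into DNA synthesis, fell in 9 of 10 members and rose in none (median -2.52). E2f1 fell by 3.13 ± 0.15 per the authors' deposited table, from an estimated 867 to 99.3 normalised counts. The repressive member E2f4 fell by 1.96 ± 0.20 per the authors' deposited table. In the Myc group, Mycn, the form used by early embryonic cells, fell by 3.51 ± 0.35 while Myc rose by 3.13 ± 0.37 per the authors' deposited table. Mxd4, which opposes Myc on the same DNA sites, rose by 5.22 ± 0.32 per the authors' deposited table.

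Sox and forkhead genes held members that moved far in either direction. Of 15 Sox genes 10 rose and 5 fell (median 2.41). Sox2, a core pluripotency factor, fell by 4.25 ± 0.18 and kept an estimated 304 normalised counts in ESC-OB, and Sox15 fell by 4.69 ± 0.56, per the authors' deposited table. Sox9, which specifies cartilage and many epithelia, rose by 8.78 ± 0.93 from under the floor, and Sox17, a factor of endoderm and endothelium, by 8.52 ± 0.65 from 2.72 to 1003 normalised counts per the authors' deposited table. Of 31 forkhead genes 22 rose and 7 fell (median 1.97). Foxh1, the partner of Nodal signalling, and Foxd3, a stem cell and neural crest factor, had log2 changes of -10.21 ± 1.35 and -7.61 ± 0.92, both to under the floor, per the authors' deposited table. Foxp2 (under the floor in ESC) and the endodermal factor Foxa2 rose by 9.02 ± 1.16 and 8.26 ± 0.73 per the authors' deposited table. Foxm1, which drives mitotic genes, fell by 2.61 ± 0.20 per the authors' deposited table.

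Nuclear receptors, the ligand-controlled factors, rose in 25 of 35 and fell in 5 (median 2.02). The 5 falls included stem cell regulators. Esrrb fell by 10.65 ± 0.42, Nr0b1 fell by 9.96 ± 0.84 to under the floor and Nr5a2 fell by 7.12 ± 0.34 per the authors' deposited table. The COUP factors Nr2f1 and Nr2f2 rose by 7.35 ± 0.85 and 7.53 ± 0.45, and the retinoic acid receptor Rarb by 6.62 ± 0.59 per the authors' deposited table. Pparg, the adipocyte factor, rose by 5.78 ± 0.86 from under the floor per the authors' deposited table. In the ETS family, 11 of 20 rose and 7 fell. Etv5 and Etv4, outputs of FGF and ERK signalling, had log2 changes of -5.55 ± 0.26 and -3.96 ± 0.40, and Ets1 rose by 5.42 ± 0.28, per the authors' deposited table. Among the 21 Klf and Sp genes 10 rose and 8 fell (47.6% and 38.1%), near the 43.3% and 35.8% of all genes. Klf8 and Klf2 had log2 changes of -5.78 ± 0.36 and -2.26 ± 0.31, Klf6 and Klf7 rose by 4.16 ± 0.21 and 3.85 ± 0.34, and Klf4, a naive stem cell factor, rose by 0.56 ± 0.15 per the authors' deposited table. The Tcf and Lef group rose in 7 and fell in 7 of 14, with Tcf7 at -4.20 ± 0.41 and Tcf7l2 at 3.08 ± 0.21 per the authors' deposited table.

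Several families rose in every member tested. These were the 8 interferon regulatory factors, 7 Jun and Fos genes, 6 Egr and Nr4a genes, 6 factors of epithelial to mesenchymal transition, 6 Hes and Hey genes, 8 genes of the Hand, Mesp and cardiac list, 5 Iroquois genes, 5 of the Dlx, Msx, Prrx and Alx list, 3 Hoxb genes, 4 Nfi genes and 4 Id genes, the inhibitors of basic helix-loop-helix factors. Among them, Irf7, which amplifies interferon, rose by 6.53 ± 0.44, Zeb2 by 7.50 ± 0.55, Twist1 by 4.42 ± 0.41, Hes1, a Notch output, by 2.95 ± 0.12, and Nfia by 6.42 ± 0.42 per the authors' deposited table. Under the floor in ESC were 3 of the 5 Dlx, Msx, Prrx and Alx genes and 3 of the 6 Egr and Nr4a genes. So were 2 of the 3 Hoxb and 2 of the 5 Iroquois genes. Such genes could reach a base mean of 10 only through the differentiated libraries, which favours a rise. Of the Dlx, Msx, Prrx and Alx list, 12 of 17 members had a base mean below 10. Id1, a BMP output, rose by 5.39 ± 0.31, from 15.6 to 655 normalised counts, per the authors' deposited table. Of 8 Smad genes, which carry BMP and TGF-beta signals, 7 rose, but the median change was 0.97. Mesenchymal and cardiac regulators were among the largest rises. Maf, Prrx1 and Mef2c, all under the floor in ESC, rose by 10.23 ± 1.14, 9.97 ± 0.94 and 8.74 ± 1.17, and Gata6 and Gata4 by 8.80 ± 0.48 and 6.27 ± 0.38, per the authors' deposited table. Creb3l1, which supports the secretion of bone matrix, rose by 5.57 ± 0.25 per the authors' deposited table. Meis1, a partner of Hox proteins, rose by 7.28 ± 0.42 per the authors' deposited table, yet few Hox genes were measured at this level: 3 of 11 Hoxa, 3 of 9 Hoxb, 3 of 8 Hoxc and 0 of 8 Hoxd genes reached a base mean of 10. Those that rose sit at the anterior end of their clusters, as with Hoxb3 and Hoxb2 (both under the floor in ESC) at 7.14 ± 1.31 and 6.42 ± 1.27, and Hoxa2 at 4.29 ± 1.09 per the authors' deposited table, and the 2 that fell were Hoxc4 and Hoxc13. Of the 6 Hoxb genes with a base mean below 10, 1 rose and 2 fell. The 1 factor of epithelial to mesenchymal transition below that level fell.

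**Figure D3:**
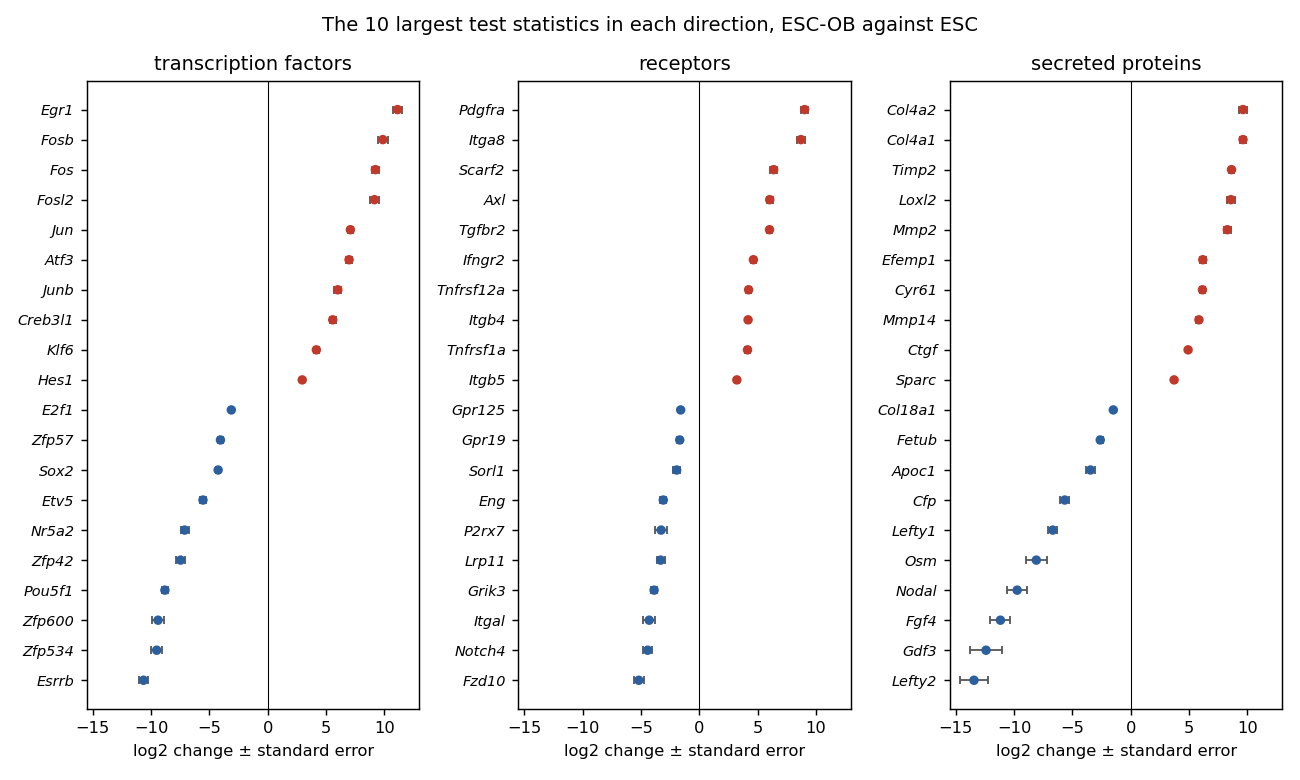
Log2 change (ESC-OB against ESC) with its standard error for the 10 transcription factors, 10 receptors and 10 secreted proteins with the largest test statistic in each direction. The factors' falls reach -10.65 (Esrrb) and their rises 11.12 (Egr1), while the receptors' falls end at -5.18 (Fzd10) and their rises reach 9.03 (Pdgfra).

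Receptors rose across nearly every signalling family. Of 8 receptors of the PDGF, Kit, CSF1 and VEGF group 7 rose and none fell. Pdgfra, the mesenchymal PDGF receptor, rose from 12.4 to 6510 normalised counts (9.03 ± 0.32), and Flt1 and Csf1r, receptors for VEGF and CSF1, rose by 8.42 ± 0.43 and 8.17 ± 0.80 per the authors' deposited table. All 5 FGF receptors rose, from Fgfr1 at 0.95 ± 0.25 to Fgfr3 at 6.68 ± 0.34 per the authors' deposited table. Eph receptors rose in 8 of 9, Epha1 by 7.51 ± 0.66 per the authors' deposited table. All 4 receptors of the insulin and IGF group rose, Igf1r by 2.94 ± 0.26 per the authors' deposited table, and all 4 of the EGF receptor family.

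Receptors for BMP, TGF-beta and activin rose in 11 of 14 and fell in 3. Tgfbr2 rose from 55.1 to 3582 normalised counts (6.02 ± 0.20) and its co-receptor Tgfbr3 by 5.40 ± 0.29, against 0.55 ± 0.20 for Tgfbr1, the signalling partner of Tgfbr2, per the authors' deposited table. Among BMP receptors, Bmpr1b rose by 4.72 ± 0.45, Bmpr2 by 2.83 ± 0.20 and Bmpr1a by 1.15 ± 0.14 per the authors' deposited table. Eng, a co-receptor best known from endothelium, fell by 3.08 ± 0.26 per the authors' deposited table. Of 13 Wnt receptor genes 10 rose and 2 fell. Fzd1 rose by 8.10 ± 0.44 and Fzd10 fell by 5.18 ± 0.44 per the authors' deposited table. Lgr5, a receptor for R-spondins, rose by 9.77 ± 0.92 from under the floor per the authors' deposited table. Of the 4 Notch receptors only Notch2 rose (1.64 ± 0.18) and only Notch4 fell (-4.42 ± 0.39) per the authors' deposited table, and Notch1 lay at 0.14 ± 0.17.

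Receptors of the gp130, LIF and interferon list rose in 12 of 15 and fell in 1. Osmr, the oncostatin M receptor chain, rose by 9.62 ± 0.71, Lifr, the LIF receptor, by 2.92 ± 0.26 and Il6st, their shared gp130 chain, by 1.71 ± 0.17 per the authors' deposited table. On the ligand side, Osm fell by 8.09 ± 0.90 to under the floor and Lif rose by 1.65 ± 0.22 per the authors' deposited table. Growth hormone and leptin receptors, Ghr and Lepr, rose by 8.09 ± 0.56 and 4.85 ± 0.60 per the authors' deposited table. Interleukin receptors rose in 14 and fell in 1 of 21, and TNF receptors rose in 10 and fell in 2 of 16. Tnfrsf11b, osteoprotegerin, the decoy that osteoblasts release against RANKL, rose by 7.97 ± 1.17 from under the floor per the authors' deposited table. Receptors for amines, peptides and purines rose in 42 of 51, with 17 of the 51 under the floor in ESC. Adora1, an adenosine receptor, rose by 9.75 ± 0.77 and Ednrb, the endothelin B receptor, by 9.03 ± 0.79 per the authors' deposited table.

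Matrix receptors and guidance receptors moved the same way. Integrins rose in 19 and fell in 1 of 25 (median 2.61). Itga8 rose by 8.71 ± 0.34, Itga11, which binds collagen, by 7.31 ± 0.65, and Itgb6 by 9.97 ± 1.08 from under the floor per the authors' deposited table. Itgal, the alpha chain of a leukocyte integrin, fell by 4.29 ± 0.51 per the authors' deposited table. Axl, a TAM receptor kinase, and Nrp1, a co-receptor for semaphorins and VEGF, rose by 6.04 ± 0.24 and 7.50 ± 0.54 per the authors' deposited table. The scavenger receptors Scara3 and Cd36, both under the floor in ESC, rose by 10.90 ± 1.07 and 10.82 ± 1.11 per the authors' deposited table. Few receptors fell far, and among the largest test statistics were Grik3, a kainate receptor, at -3.87 ± 0.27 and P2rx7, an ATP-gated channel, at -3.27 ± 0.52 per the authors' deposited table.

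Matrix proteins rose nearly as a whole. Collagens rose in 36 of 42 (median 5.53, and 5.27 at the floor), small leucine-rich proteoglycans in 12 of 13 (median 8.03), elastic fibre genes in 23 of 24, laminins in 10 of 11 and ADAMTS proteases in 19 of 22. Col4a1 and Col4a2, the basement membrane collagen chains, both rose by 9.62 (± 0.30 and ± 0.35) per the authors' deposited table. Col1a2, a chain of type I collagen, rose most among the collagens, by 11.73 ± 0.49 per the authors' deposited table. In iPSC-OB it rose by 1.89 ± 0.49 per the authors' deposited table for iPSC. Col6a2 and Col8a1 rose by 11.14 ± 0.69 and, from under the floor, 10.95 ± 0.87 per the authors' deposited table. Col18a1 and Col2a1, the main cartilage collagen, were the only collagens that fell, with log2 changes of -1.50 ± 0.11 and -1.27 ± 0.34 per the authors' deposited table. Fn1, fibronectin, did not pass the test at 0.16 ± 0.16 per the authors' deposited table. Secreted modifiers of the matrix included Timp2 at 8.63 ± 0.25, Mmp2 at 8.27 ± 0.30, its activator Mmp14 at 5.84 ± 0.21, Mmp13, the collagenase of bone and cartilage, at 10.21 ± 1.23, Adamts1 at 10.93 ± 0.64 and Loxl2, a collagen cross-linking enzyme, at 8.59 ± 0.33 per the authors' deposited table. Timp1 fell by 1.01 ± 0.31 per the authors' deposited table. Ctgf and Cyr61, matricellular proteins and outputs of Yap, rose by 4.92 ± 0.11 and 6.14 ± 0.21 per the authors' deposited table.

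Growth factors traded members within families. In the BMP, GDF and activin list 15 of 21 rose and 4 fell. The 4 were Lefty2 (-13.43 ± 1.20), Gdf3 (-12.40 ± 1.34), Nodal (-9.73 ± 0.86) and Lefty1 (-6.68 ± 0.38) per the authors' deposited table, all of the Nodal system of the early embryo, and all but Lefty1 ended under the floor. Gdf10, Bmp3 and Inhba rose from under the floor by 9.46 ± 1.11, 8.61 ± 1.15 and 8.33 ± 1.16, and Bmp2, which induces bone, by 8.28 ± 0.75, per the authors' deposited table. Bmp4 rose by 1.86 ± 0.53 per the authors' deposited table. All 3 TGF-beta ligands rose, Tgfb2 by 8.30 ± 0.59 per the authors' deposited table, and so did 12 of 13 BMP antagonists, with Nog at 7.41 ± 0.64. In the FGF list 10 of 13 rose and 2 fell. Fgf4, the autocrine FGF of stem cells, fell by 11.17 ± 0.85, from 2562 normalised counts to under the floor, and Fgf17 fell by 5.62 ± 0.79 per the authors' deposited table. Fgf2 and Fgf7 rose by 4.45 ± 0.70 and 4.38 ± 0.70 per the authors' deposited table, to levels of 51.3 and 67.7 normalised counts.

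All 11 Wnt genes tested rose (median 3.85). Wnt4, Wnt5a and Wnt9a rose by 8.52 ± 0.59, 6.46 ± 0.58 and 6.04 ± 0.55 per the authors' deposited table. Inside the cell, 3 of 8 genes of the Wnt feedback list rose and 3 fell, among them Axin2, a general read-out of beta-catenin, at -1.10 ± 0.25 per the authors' deposited table. IGF genes and their binding proteins rose in 9 of 10 (median 8.29, and 8.16 at the floor). Igf2, an imprinted growth factor, rose by 10.27 ± 0.42, Igfbp5 by 9.80 ± 0.45 and Igfbp4 by 9.04 ± 0.36, and Igfbp2 fell by 0.46 ± 0.19, per the authors' deposited table. EGF ligands rose in 8 of 10, with Ereg and Areg, both under the floor in ESC, at 9.26 ± 1.12 and 8.35 ± 1.18 per the authors' deposited table. Chemokines rose in 7 of 8 (CXC) and 7 of 10 (CC). Of those tested, 2 CXC and 7 CC genes were under the floor in ESC. These could reach a base mean of 10 only through the differentiated libraries, which favours a rise. Cxcl12, which holds blood stem cells in marrow, rose by 8.08 ± 0.51 and Cxcl1, which attracts neutrophils, by 9.48 ± 1.06 per the authors' deposited table. Semaphorins were mixed at 12 up and 5 down of 20. Sema6d and Sema3d (under the floor in ESC) rose by 9.76 ± 0.70 and 10.14 ± 1.11, and Sema5b fell by 2.70 ± 0.58, per the authors' deposited table.

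**Figure D4:**
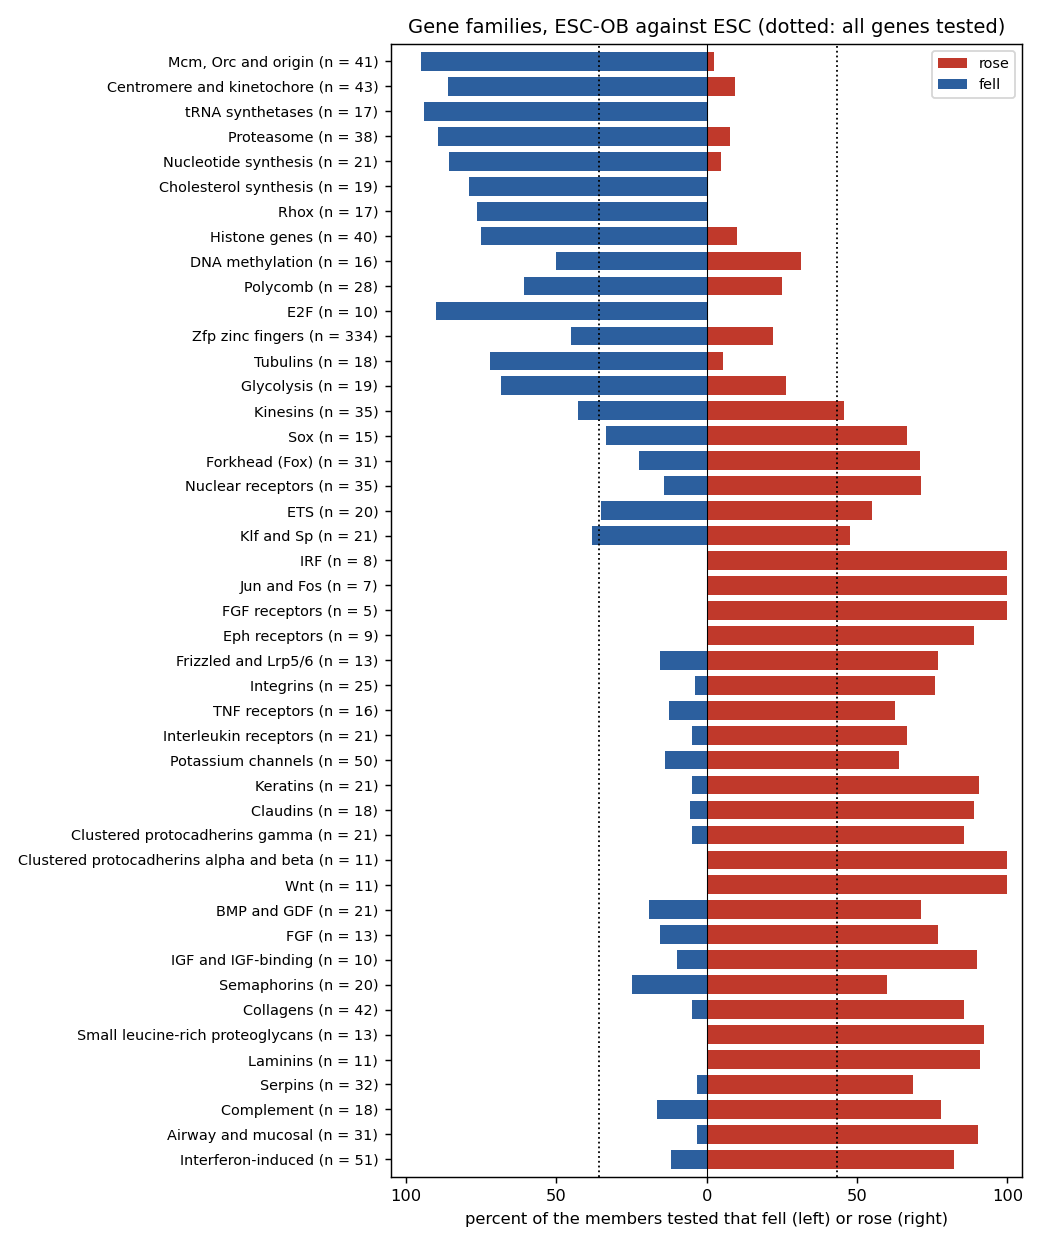
Percent of the tested members of each family that rose (right) or fell (left), with dotted lines at the share over all genes tested (43.3% and 35.8%). Replication, translation and nucleotide families extend to the left of the line, and matrix, growth factor and receptor families to the right.

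Secreted proteins of organs other than bone rose as well. Complement genes rose in 14 and fell in 3 of 18. C3, the central component, rose by 13.65 ± 0.77, while Cfp, which stabilises its convertase, fell by 5.66 ± 0.40 per the authors' deposited table. Serpins rose in 22 of 32, with Serpina3n, an acute phase inhibitor, at 11.39 ± 0.55 per the authors' deposited table. Plasma proteins rose in 17 of 19, with Ttr and Alb from under the floor at 10.38 ± 1.08 and 9.87 ± 1.23 per the authors' deposited table. The airway and mucosal list rose in 28 of 31 (median 6.63, and 5.38 at the floor), with 19 of the 31 under the floor in ESC. Those 19 could reach a base mean of 10 only through the differentiated libraries, so that they rose is largely set by that limit. Also under the floor in ESC were 11 of the 32 serpins, 7 of the 19 plasma proteins and 5 of the 18 complement genes. Bpifa1 and Lcn2, host defence proteins of mucosal surfaces, rose by 11.65 ± 1.03 and 11.13 ± 0.87, both from under the floor, per the authors' deposited table.

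Markers of other cell types rose as well in the unsorted cultures. These marker lists share genes with the secreted lists, so the 2 are not separate observations. Alb and Ttr are among the liver markers and Bpifa1 among the airway markers. All 14 squamous and basal epithelial markers, all 10 airway markers, all 12 smooth muscle and pericyte markers, 14 of 15 heart muscle markers, 13 of 14 liver and yolk sac markers, 13 of 14 fibroblast markers and 8 of 9 mesothelial markers rose, and the last list held 1 fall. Under the floor in ESC were 6 of the 14 squamous, 5 of the 10 airway and 4 of the 14 fibroblast markers. So were 3 of the 15 heart muscle and 3 of the 14 liver markers. Such genes could reach a base mean of 10 only through the differentiated libraries, which favours a rise. Myh7, cardiac myosin, rose by 9.53 ± 0.44 to 9702 normalised counts, Krt5 and Krt15, basal keratins, by 10.51 ± 0.70 and 10.94 ± 0.62, Acta2, smooth muscle actin, by 8.78 ± 0.57 and Upk1b, which mesothelium and urothelium express, by 11.40 ± 0.87 per the authors' deposited table. Endothelial markers rose in 8 and fell in 3 of 11. Cdh5, the endothelial cadherin, rose by 9.41 ± 0.83, and Pecam1, which stem cells also express, fell by 5.44 ± 0.37 per the authors' deposited table. Of the blood and macrophage markers 5 of 8 rose and 1 fell, and Ptprc, which defines leukocytes, had a base mean below 10. None of 4 erythroid markers reached that level. Neuronal markers rose in 2 and fell in 4 of 10, with Tubb3 at -4.00 ± 0.35 per the authors' deposited table. Summed over each list, the estimated level in normalised counts went from 379 in ESC to 27936 in ESC-OB for the squamous markers, from 25 to 15379 for airway, from 510 to 32605 for heart muscle and from 171 to 7855 for liver. The sum went from 551 to 8325 for smooth muscle, from 591 to 28546 for mesothelium, from 3251 to 6155 for endothelium, and from 3587 to 1858 for blood. Fibroblast markers had the largest sum in ESC-OB, going from 263 to 90085. Osteoblast and osteocyte markers went from 13323 to 39795, and both of these lists hold Col1a1. The fibroblast list also holds Col1a2, a chain of the type I collagen that osteoblasts deposit, at an estimated 27200 normalised counts in ESC-OB. The 2 sums therefore do not tell fibroblasts from osteoblasts. None of the squamous, airway, heart, liver, smooth muscle, mesothelial, endothelial or fibroblast markers was under the floor in ESC-OB. All 5 adipocyte markers tested rose, with a summed level of 214 and 2804, and 6 of 10 skeletal muscle markers rose and 1 fell. The summed level of the skeletal muscle markers nevertheless went down, from 1465 in ESC to 740 in ESC-OB. Among the muscle, neuronal and adipocyte markers Myod1, Myf5, Dcx, Rbfox3 and Adipoq were under the floor in ESC-OB. The part of these cells in the secreted, receptor and cytoskeletal counts was not tested.

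Cadherins moved in both directions. Cdh1, the epithelial cadherin of stem cells, fell by 1.23 ± 0.24 and kept about 2002 normalised counts, Cdh2 rose by 1.07 ± 0.33 and Cdh11, the cadherin of osteoblasts and mesenchyme, by 10.48 ± 0.79 per the authors' deposited table. All 11 clustered protocadherins of the alpha and beta groups tested rose and all 11 were under the floor in ESC, so that their median of 7.17 becomes 5.59 with levels raised to the floor. They could reach a base mean of 10 only through the differentiated libraries, so that all 11 rose is largely set by that limit. Of the 15 members below it 7 rose and 0 fell. Pcdhb16 rose by 7.95 ± 1.23 per the authors' deposited table. Members of the gamma group rose in 18 and fell in 1 of 21, with a median of 3.03; reads of such close copies may be split among them. Claudins, the tight junction proteins, rose in 16 of 18, with Cldn2 and Cldn11 from under the floor at 9.10 ± 0.92 and 10.17 ± 0.95 per the authors' deposited table. Of the 18 claudins, 7 were under the floor in ESC, which favours a rise in the same way.

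In the cytoskeleton, keratins rose in 19 of 21 and tubulins fell in 13 of 18. Of the 21 keratins, 9 were under the floor in ESC and were counted only through the differentiated libraries, which favours a rise. Krt8 and Krt18, a pair that simple epithelia make, rose by 7.15 ± 0.19 and 6.97 ± 0.20, and Krt42 fell by 7.27 ± 0.69, per the authors' deposited table. Tubb5, the main beta tubulin of dividing cells, fell by 2.78 ± 0.13, and the single tubulin that rose was Tuba8 per the authors' deposited table. Cytoplasmic actins Actb and Actg1 did not pass the test, at -0.24 ± 0.13 and 0.14 ± 0.10 per the authors' deposited table. Kinesins rose in 16 and fell in 15 of 35, which measured from the median gene became 14 and 16. Their shares of 45.7% and 42.9% lie near the 43.3% and 35.8% of all genes. Mitotic kinesin Kif20a fell by 3.47 ± 0.29 and Kif26b rose by 5.08 ± 0.43 per the authors' deposited table. The nuclear lamins moved apart: Lmnb1 and Lmnb2 had log2 changes of -3.51 ± 0.18 and -2.73 ± 0.16, and Lmna, which stiffens the nuclei of mechanically loaded tissue, rose by 3.87 ± 0.21 per the authors' deposited table.

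Metabolic enzymes of growing cells fell as groups. No gene of cholesterol synthesis rose and 15 of 19 fell. Nsdhl fell by 3.00 ± 0.21, while Hmgcs1 did not pass the test at 0.13 ± 0.16 per the authors' deposited table. Nucleotide synthesis fell in 18 of 21 and rose in 1, the p53-induced subunit Rrm2b at 0.72 ± 0.23, against -5.10 ± 0.27 for its replicative counterpart Rrm2 per the authors' deposited table. One-carbon, serine and threonine enzymes fell in 20 of 25. Tdh, which feeds threonine into the folate cycle of mouse stem cells, fell from 9375 normalised counts to under the floor (-12.95 ± 0.82), its pathway partner Gcat fell by 3.90 ± 0.22 and Shmt1 fell by 4.35 ± 0.25 per the authors' deposited table. Glycolytic genes fell in 13 and rose in 5 of 19. Pkm and Gapdh had log2 changes of -2.35 ± 0.15 and -1.97 ± 0.18, and the neuronal and bone isozyme Eno2 rose by 3.08 ± 0.25, per the authors' deposited table.

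Enzymes of retinoid and foreign compound handling rose. Of 34 cytochromes P450, 28 rose and 2 fell, with 12 under the floor in ESC. Cyp26a1 and Cyp26b1, which break down retinoic acid, rose by 7.86 ± 0.68 and 8.12 ± 0.64 per the authors' deposited table. Aldh1a1, which makes retinoic acid, rose by 10.26 ± 0.78 and Stra6, the retinol importer, by 8.26 ± 0.59 per the authors' deposited table. Retinoic acid had been washed out on day 5. Enzymes of sulfation and glycosaminoglycan synthesis, which build proteoglycan side chains, rose in 28 and fell in 4 of 38, with Hs3st1 at 7.78 ± 0.66 per the authors' deposited table.

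Transporters showed exchanges within families. Slc2a3, the high-affinity glucose carrier of embryos, fell by 3.66 ± 0.35 and Slc2a1 fell by 0.85 ± 0.14, and Slc2a10 rose by 8.64 ± 1.15 from under the floor, per the authors' deposited table. Among cationic amino acid carriers, Slc7a3 fell by 6.36 ± 0.36 and Slc7a2 rose by 8.52 ± 0.53 per the authors' deposited table. Slc39a8, a zinc and manganese importer, rose by 9.74 ± 0.80 per the authors' deposited table. Potassium channels rose in 32 and fell in 7 of 50, with Kcnj15 and Kcne4 from under the floor at 11.67 ± 1.04 and 9.78 ± 1.09 per the authors' deposited table. Cacna1d, an L-type calcium channel, rose by 9.11 ± 0.80 and the water channel Aqp1, from under the floor, by 11.36 ± 1.07 per the authors' deposited table.

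Genes of DNA replication and division fell almost without exception. Of 41 genes of replication origins and forks 39 fell and 1 rose; the median was -2.49. Mcm10 fell by 4.83 ± 0.20, and the riser was Pold4, the small subunit of polymerase delta, at 4.01 ± 0.29 per the authors' deposited table. DNA repair genes fell in 34 of 39 (median -2.58) and centromere and kinetochore genes in 37 of 43. Among 12 cyclins and cyclin-dependent kinases 10 fell and 1 rose. Ccne1, which stem cells hold high, fell by 4.22 ± 0.25 and Cdk1 fell by 3.26 ± 0.23, and Ccnd2 rose by 6.57 ± 0.35, from 72.1 to 6837 normalised counts, per the authors' deposited table. The related Ccnd1 did not pass at -0.58 ± 0.31 per the authors' deposited table. CDK inhibitors rose in 5 of 7. Cdkn1c, the imprinted inhibitor, rose by 3.58 ± 0.35 and Cdkn1a (p21) by 1.85 ± 0.18, and Cdkn2a fell by 1.20 ± 0.33, per the authors' deposited table. Histone genes fell in 30 and rose in 4 of 40. The risers included Hist1h1c, a linker histone known to be made outside S phase, at 3.70 ± 0.29 per the authors' deposited table. Most replication-dependent histone messages lack a poly(A) tail, and libraries were made from purified mRNA, so these levels are of the polyadenylated part.

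Some paralogous chromatin subunits moved in opposite directions, and the pairs named were not counted against those that moved together. In the DNA methylation list 8 of 16 fell and 5 rose. Tet1 and Tet2, which oxidise methylcytosine, had log2 changes of -6.28 ± 0.34 and -1.98 ± 0.25, and Tet3 rose by 1.23 ± 0.18, per the authors' deposited table. Dnmt3b and Dnmt1 had log2 changes of -3.72 ± 0.30 and -2.72 ± 0.17, and Dnmt3a rose by 0.87 ± 0.14, per the authors' deposited table. Among 28 Polycomb genes 17 fell and 7 rose (median -1.14). Ezh2, the methyltransferase of dividing cells, fell by 2.93 ± 0.14 and its paralogue Ezh1 rose by 1.32 ± 0.17, and Phc1 fell by 2.55 ± 0.15 and Phc2 rose by 2.26 ± 0.18, per the authors' deposited table. Mtf2 and Jarid2, which target the complex in stem cells, had log2 changes of -3.86 ± 0.14 and -3.62 ± 0.12 per the authors' deposited table. In the SWI/SNF remodeller Smarca4 fell by 1.02 ± 0.10 and Smarca2, the other ATPase, rose by 4.35 ± 0.22, while Smarcc1 fell by 2.05 ± 0.18 and Smarcc2 rose by 1.66 ± 0.13 per the authors' deposited table. The class I deacetylase Hdac1 fell by 2.90 ± 0.13, and the class IIa genes Hdac7 and Hdac9 rose by 2.82 ± 0.21 and 4.87 ± 0.63, per the authors' deposited table.

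The machinery of protein synthesis and breakdown fell by smaller steps. Of 78 cytosolic ribosomal protein genes 60 fell and none rose (median -0.79), as did 60 of 76 mitochondrial ones (median -1.09) and 16 of 17 tRNA synthetases (median -1.09). Measured from the median gene each of these changes is larger by 0.19. The largest ribosomal falls were in paralogues made in few tissues: Rpl10l fell by 9.33 ± 1.07 to under the floor and Rps4l fell by 3.68 ± 0.23 per the authors' deposited table. Proteasome genes fell in 34 of 38 (median -1.15) and rose in 3. The 3 were the interferon-induced catalytic subunits Psmb8 (8.40 ± 0.91, from under the floor), Psmb9 (2.60 ± 0.37) and Psmb10 (1.46 ± 0.28) per the authors' deposited table. The constitutive subunits they replace, Psmb5, Psmb6 and Psmb7, had log2 changes of -1.31 ± 0.11, -1.18 ± 0.13 and -1.15 ± 0.12 per the authors' deposited table. Splicing factors fell in 29 and rose in 7 of 41 (median -0.98). Srsf1 fell by 2.37 ± 0.16, and Mbnl1 and Mbnl2, which favour adult splice forms, rose by 3.10 ± 0.20 and 4.04 ± 0.25, per the authors' deposited table.

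Genes known from stem cells and the germ line were among the largest falls. All 12 genes of the Dppa and Tdgf1 list fell (median -6.12), Tdgf1, the Nodal co-receptor, fell by 11.72 ± 0.67 and Dppa5a fell by 8.52 ± 0.25 per the authors' deposited table. Prdm14 and Spic, factors of naive stem cells, had log2 changes of -9.76 ± 0.84 and -10.10 ± 1.44, both to under the floor, per the authors' deposited table. Of 17 Rhox homeobox genes, clustered on the X chromosome, 13 fell and none rose, with Rhox1 at -8.08 ± 0.88, to under the floor, per the authors' deposited table. Copies of this cluster share reads.

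Signalling genes inside the cell that damp growth factor responses rose. Dusp phosphatases rose in 13 and fell in 2 of 20, with Dusp1 at 4.81 ± 0.15 and Dusp6, which switches off ERK, at 3.25 ± 0.33 per the authors' deposited table. RGS proteins, which damp G protein signals, rose in 13 of 15. Rgs2 rose by 8.24 ± 0.82 per the authors' deposited table. Egr1, Fos and Jun, immediate early genes, rose by 11.12 ± 0.35, 9.22 ± 0.29 and 7.08 ± 0.20 per the authors' deposited table. Interferon-induced genes rose in 42 and fell in 6 of 51 (median 5.63, and 4.86 at the floor). Of the 51, 18 were under the floor in ESC. Those 18 could reach a base mean of 10 only through the differentiated libraries, which favours a rise. Bst2, whose promoter is printed above, went from 107 to 1867 normalised counts, and Ifit1 rose by 9.43 ± 0.89 from under the floor per the authors' deposited table. The fallers included Ifitm1 and Ifitm2, which stem cells express, at -1.45 ± 0.26 and -1.04 ± 0.31 per the authors' deposited table. In antigen presentation by MHC class I, 18 of 21 genes rose, with B2m, the shared light chain, at 5.26 ± 0.25 per the authors' deposited table.

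The authors' table of osteoblast cultures from induced pluripotent stem cells (iPSC-OB against iPSC) shares no library with the ESC comparison. It was normalised separately, so the values are set side by side without a test. There were 2 samples each of iPSC and iPSC-OB, from an earlier passage range, against 3 each of ESC and ESC-OB. The days of differentiation and the retinoic acid step were the same. Whether group size or passage accounts for the fewer calls in iPSC-OB was not tested. Of the 14735 genes in both tables, 29.3% rose in iPSC-OB and 25.8% fell. Of 6378 genes that rose in ESC-OB, 3690 rose in iPSC-OB (57.9%) and 217 fell (3.4%). Of 5281 that fell in ESC-OB, 3203 fell (60.7%) and 144 rose (2.73%). Pdgfra rose by 6.12 ± 0.30, Tgfbr2 by 3.90 ± 0.37, Ctgf by 3.87 ± 0.55 and Esrrb fell by 7.71 ± 0.36 per the authors' deposited table for iPSC. Genes named next were chosen after their values had been seen, and do not stand for their lists: of the 51 interferon-induced genes 24 rose and 8 fell in iPSC-OB (median 1.14). Against rises in ESC-OB, Egr1 fell by 3.27 ± 0.24, Fos fell by 2.19 ± 0.21 and Fosb fell by 5.06 ± 0.28 per the authors' deposited table for iPSC. The same was so for Dusp6 at -1.59 ± 0.22, Trib1 at -1.71 ± 0.22 and Ier2 at -2.32 ± 0.20 per the authors' deposited table for iPSC. Psmb8, Psmb9 and Psmb10 lay at -2.28 ± 0.35, -2.86 ± 0.69 and -2.85 ± 0.39, and Gbp2, an interferon-induced GTPase, at -2.93 ± 0.29, per the authors' deposited table for iPSC. Esrp1, an epithelial splicing factor, rose by 4.72 ± 0.38 in ESC-OB and fell by 1.91 ± 0.37 in iPSC-OB, and Dnmt3a rose by 0.87 ± 0.14 and fell by 1.68 ± 0.34, per the authors' deposited tables.

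All Xlr genes tested fell in ESC-OB and rose in iPSC-OB. In the Mage, Xlr and Prame list 15 of 20 genes fell and 4 rose in ESC-OB (median -2.83), and 15 rose and 1 fell in iPSC-OB (median 2.05). Xlr3a fell by 3.71 ± 0.37 and rose by 5.18 ± 0.83, and Xlr5a fell by 2.79 ± 0.52 and rose by 5.85 ± 1.12, per the authors' deposited tables. The Xlr genes lie side by side and are nearly identical, so they share reads and are not separate observations. No Rhox gene passed the test in either direction in iPSC-OB, where each group had 2 samples.

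**Figure D5:**
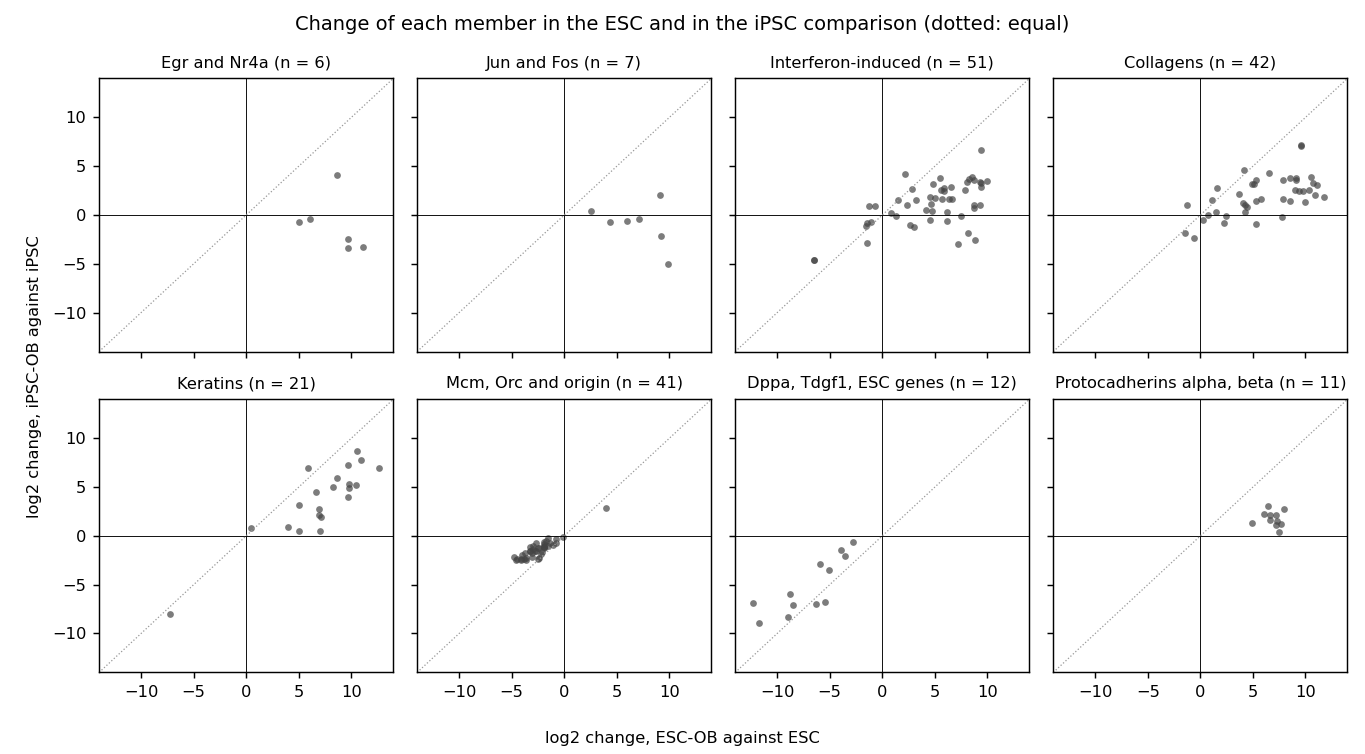
Log2 change of each member of 8 lists in the ESC comparison (horizontal) and in the iPSC comparison (vertical); the dotted line marks equal change. Replication and stem cell lists lie in the lower left of both, collagens and keratins in the upper right, and Egr and Fos genes are positive for ESC-OB and mostly negative for iPSC-OB.

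Neighbouring genes moved together somewhat more often than the background. In RefSeq gene order, which was used for order only and matched 14683 of the 14749 genes (99.6%), the next gene rose after 49.5% of risers against 43.4% over all pairs, and fell after 42.1% of fallers against 35.8%. The longest runs were named after they had been seen. A run of 18 falling genes from Tnfrsf8 to Gm13157 holds Zfp600 and Zfp534. A run of 14 falling genes lies in the histone cluster from Hist1h2bl to Hist1h2bk. Runs of 12 rising genes held the keratins from Krt80 to Krt18 and, from Alb to Parm1, the genes for albumin, CXC chemokines and EGF ligands. A run of 11 rising genes spans Pcdhb7 to Pcdhb22. Members of tandem families share sequence and can share reads.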

How the data were processed

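RNA-seq of ESC and ESC-OB (3 samples each) was deposited as the authors' tables of comparisons, with 0 columns of values per sample. Per the file headers each table gives the base mean (a signal: the mean normalised count), the log2 fold change with its standard error, the test score (fold over standard error) and the p-value with its adjusted form. The submitters' processing notes name STAR 2.4.2a, DESeq2, R 3.2.2 and mm9 without roles. The sources used here do not state the use of strand, so overlapping and antisense genes cannot be told apart, and values of near-identical copies (Zscan4, Xlr, Rhox, protocadherin, histone, MHC and Krt6 genes) are uncertain.

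The direction is not stated in the tables and was read from pluripotency genes: positive is higher in ESC-OB. The deposited score equalled fold over standard error in 19781 of 19781 genes, and Benjamini-Hochberg adjustment gave the deposited adjusted p in 18208 of 18208; 1573 genes have none. A gene was called at an adjusted p under 0.05 and a base mean of at least 10. Base means were equal in both ESC tables, so group levels were solved from the base mean and both fold changes; depths were read from the lowest base means (the sorted libraries held 22.4 to 30.1 M reads). Whether the authors shrank the folds is not stated. No model could be refitted. Steps were tested on simulated data, in Python 3.11.15 with numpy 2.4.6, pandas 2.3.3, scipy 1.17.1 and matplotlib 3.10.9.

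Genes were named from sets drawn by rule, and not every gene of a set is named. The sets held the 12 largest rises and falls at a base mean of at least 100. They held up to 4 rises and 4 falls per family and members named for their known role. Up to 10 factors, receptors and secreted proteins per direction came from the test statistic. Up to 8 genes were those nearest 0 at a base mean of at least 1000. The lists and members were chosen with earlier results of these data known. Zfp36, Agtrap, Ptges3, F3, Apoo and Apool were taken out of lists, and the prostaglandin list was moved from secreted proteins to enzymes, after their values had been seen. Promoters came from RefSeq (GRCm38.p6); 11627 of the 14749 genes (78.8%) had one, so a planned comparison of promoters of genes that rose and fell is void. A list's motif share was read only where at least 80% of its members had a window.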

Additional observations from a re-analysis of the deposited data

How the results depend on the processing

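No paired analysis was possible because the deposited tables hold no value per sample; fits with the replicate number as a block and fits leaving out each replicate were not run for the same reason. The counts of genes that rose and fell stayed within 1.5 times of 6389 and 5283 under the 6 alternatives run: 7022 and 5651 with no base mean minimum, 4515 and 4288 at a base mean of at least 100, 5956 and 4852 at an adjusted p under 0.01, 5148 and 3594 at a log2 change of at least 1, 6440 and 5319 adjusted over these genes alone, and 5905 and 5911 measured from the median gene. That last setting took the share of rises among calls from 54.7% to 50%. Genes that rose in ESC-OB and fell in iPSC-OB went from 217 to 130 at an adjusted p under 0.01 and to 127 at a log2 change of at least 1. Genes that fell and then rose went from 144 to 74 and 54, and genes that fell in both from 3203 to 2052 at that size of change. The stricter limits leave fewer genes by construction. Of 484 list counts, 158 moved by over 1.5 times at a base mean of at least 100, 56 at a log2 change of at least 1, 32 with no minimum, 28 from the median gene and 19 at an adjusted p under 0.01. The majority turned for kinesins (16 up and 15 down to 14 and 16), V-ATPase genes (8 and 5 to 7 and 8) and fatty acid genes (10 and 7 to 10 and 12) when measured from the median gene. None of the 89 genes drawn by size or statistic lost its call or changed direction under the alternatives that could be run for it. Itgal lies below a base mean of 100 and has no value there. Of the genes nearest 0, Ctnnb1, Ik, Capzb, Napa and Zfr became called, as lower, when measured from the median gene. Depth limits the folds of the 800 genes under the floor in ESC and the 142 in ESC-OB.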

Other observations

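Chaperones moved in both directions. Of 73 heat shock proteins and chaperones tested, 30 rose and 34 fell in ESC-OB, with a median log2 change of 0.03. That is 41.1% and 46.6%, against 43.3% and 35.8% of all genes. The mitochondrial chaperonin Hspd1 fell by 2.61 ± 0.12, the cytosolic chaperonin subunit Cct3 fell by 2.22 ± 0.10 and Hsph1 fell by 2.91 ± 0.21 per the authors' deposited table. The stress-induced Hspa1a and Hspa1b, which are near-identical copies and share reads, rose by 3.15 ± 0.17 and 3.21 ± 0.17, and the small heart chaperone Hspb7 by 9.13 ± 0.62, per the authors' deposited table. In the endoplasmic reticulum list, where 9 of 18 rose and 8 fell, Herpud1, which aids the removal of misfolded proteins, rose by 2.52 ± 0.12 and Xbp1, a regulator of secretory capacity, by 1.43 ± 0.13 per the authors' deposited table.

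Genes of motile cilia rose in 24 and fell in 7 of 43. Foxj1, the factor that switches on motile cilia, rose by 5.20 ± 0.40 and the outer arm dynein Dnah9 by 6.87 ± 0.89, while Dnah8, a dynein best known from sperm, fell by 4.82 ± 0.41, per the authors' deposited table. Connexins and pannexins rose in 4 and fell in 4 of 11. Gja1 (connexin 43), the main connexin of osteoblasts, rose by 3.87 ± 0.28, and Gjc1 (connexin 45) fell by 3.37 ± 0.27, per the authors' deposited table; Gja1 lay at -0.43 ± 0.32 and did not pass the test per the authors' deposited table for iPSC. Annexins, which bind membranes in response to calcium, rose in 11 of 12, with Anxa2 at 6.05 ± 0.25 and Anxa3 at 8.12 ± 0.35 per the authors' deposited table.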
